A study of Bos taurus with 8 samples.

Results

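Transcript levels of 10 genes of granulosa cell steroidogenesis were followed, library by library, through a bulk RNA sequencing experiment on edited and control cattle embryos. The genes were listed by name (SCARB1, STAR, CYP11A1, FDX1, HSD3B1, CYP19A1, NR5A1, FOXL2, FSHR and INHBA), and all 10 were among the 16606 genes of the deposited table. 8 of the 10 passed the filter for testing, an average over all libraries of 1 or more read counts per 1000000 (CPM), as did 12129 genes in all. NR5A1 and FOXL2 lay below that filter and are described by their values alone.

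The samples were 8 libraries of bovine (Bos taurus) embryos, 2 in each of 4 groups: control and edited embryos at the 4-cell stage, and control and edited embryos at the 8-cell stage. 5 embryos were pooled for each library. In all 4 groups the oocytes came from abattoir ovaries, were matured as cumulus-oocyte complexes and were fertilised in vitro with Holstein semen. The edited embryos carried the label RPL12 A148G, where RPL12 is a component of the large ribosomal subunit, and the labels do not say from where the position is counted. The protocol describes injection of PEmax, a prime editor that joins a Cas9 nickase to a reverse transcriptase, and its guide RNA into the cytoplasm of the zygote, whereas the sample titles call the embryos base edited. The labels do not say whether the controls were injected or how cumulus cells were removed before collection. The share of edited embryos in a pool was not analysed here. Since the labels do not say that replicates came from separate cultures, the p-values below measure only the spread between these libraries, which may be technical.

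Granulosa cells surround the oocyte in the follicle and make steroid hormones from cholesterol. Cholesterol is taken up from lipoproteins, carried to the inner mitochondrial membrane, cleaved to pregnenolone and then converted to progesterone. Aromatisation of androgens to oestrogens is the other known granulosa step. Follicle stimulating hormone drives the pathway through its receptor and cyclic AMP, and the cumulus cells around the oocyte are granulosa cells that leave the follicle with it.

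The libraries held between 33527531 and 35122409 reads. RPL12 itself measured 159 and 174 CPM in the 4-cell controls, 27.5 and 33.6 CPM in the 4-cell edited libraries, 96.3 and 97.6 CPM in the 8-cell controls and 14.1 and 11.9 CPM in the 8-cell edited libraries. It was lower in the edited embryos at both stages, by 2.41 on the log2 scale at the 4-cell stage (limma adjusted p = 2.36e-06) and by 2.81 at the 8-cell stage (limma adjusted p = 2.99e-06). The 8-cell call held without either 8-cell control. These levels do not show whether the sequence was changed. The sample source is labelled as oocytes, and all 12 oocyte marker genes on a list that includes GDF9, BMP15 and ZP2 had reads in every library, with a summed level of 19130 to 57550 CPM. The 8-cell control libraries differed from each other in some of the genes described here, so 8-cell differences are also described without either one.

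3 of the genes formed the main pattern. CYP11A1, HSD3B1 and SCARB1 were at their highest in both 4-cell control libraries and were lower in every edited library than in any control library of the same stage. STAR and FDX1 had no significant difference between edited and control embryos at either stage. Of the 8 tested genes, 5 were lower in edited 4-cell embryos and 0 were higher. INHBA, among the 5, averaged 1.31 CPM in the 4-cell edited and 0.554 CPM in the 8-cell edited libraries. It passed the filter through the controls, so its part in such counts is not independent of the filter. Among all genes tested, 25.8% were called lower and 18.9% higher in that comparison. At the 8-cell stage 3 of the 8 genes were lower and 0 were higher, beside 14.5% called lower and 1.08% called higher among all genes. Log2 differences below are of log2(CPM + 1), which understates the change of genes at low levels, whereas values given as -fold are ratios of CPM. A gene was called at an adjusted p under 0.05 by limma over all 12129 genes.

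**Figure D1:**
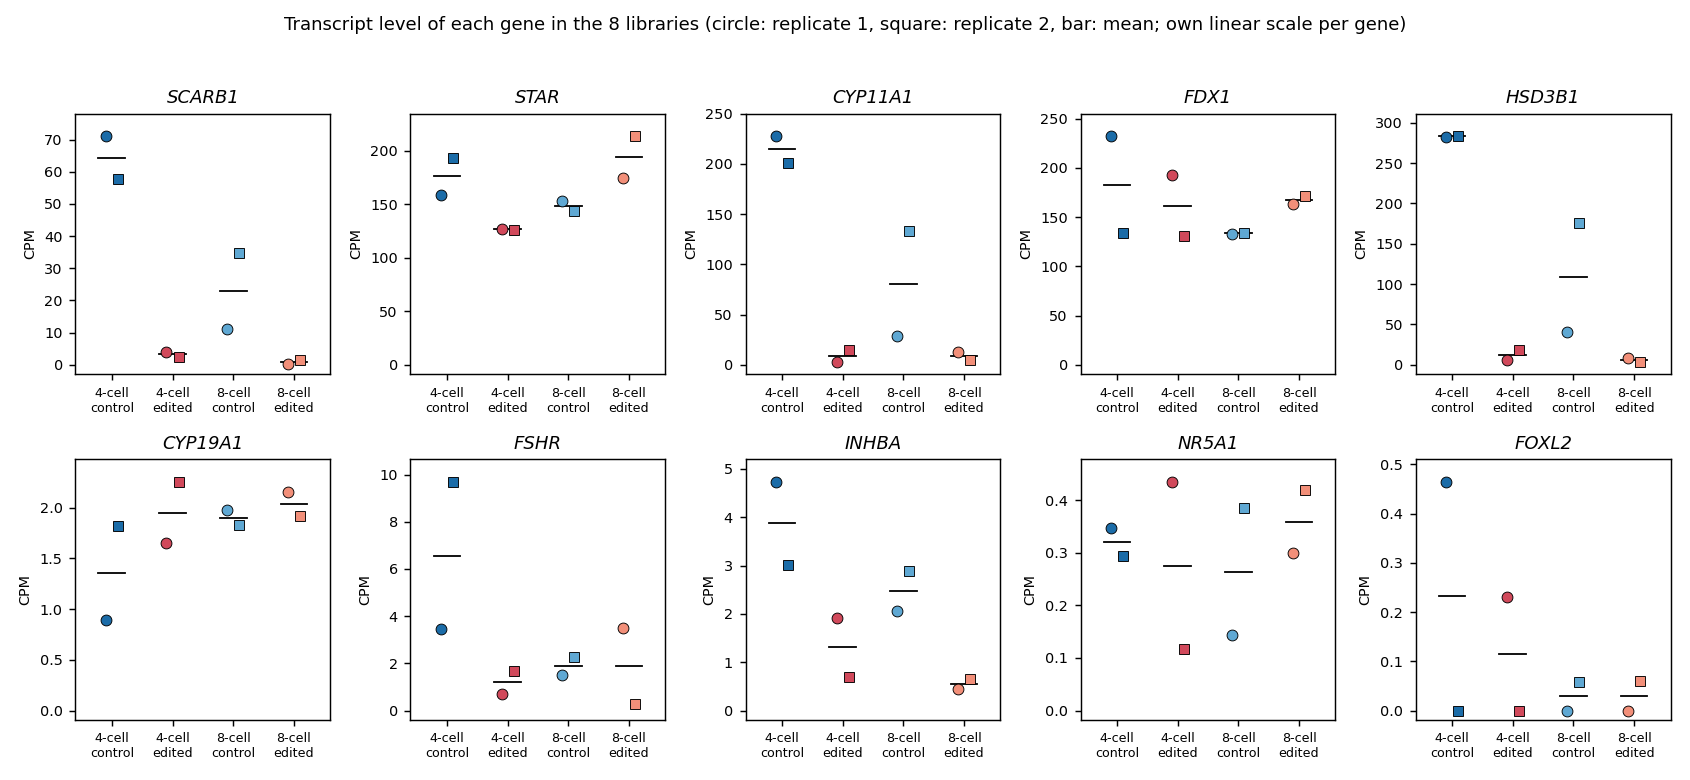
Level of each of the 10 genes in CPM (y axis, linear, own scale per gene) in the 8 libraries, by group on the x axis, with circles for replicate 1, squares for replicate 2 and bars for the group mean. CYP11A1, HSD3B1 and SCARB1 lie near the bottom of the scale in all 4 edited libraries and apart from each other in the 2 8-cell controls, where CYP11A1 measured 29.1 and 133 CPM.

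SCARB1 encodes the scavenger receptor that takes up cholesterol from high density lipoprotein, the first step of supply. It measured 71.0 and 57.9 CPM in the 4-cell controls, 4.05 and 2.43 CPM in the 4-cell edited libraries, 11.1 and 34.9 CPM in the 8-cell controls, and 0.299 and 1.50 CPM in the 8-cell edited libraries. At each stage both edited libraries lay below both controls, and the lowest control exceeded the highest edited library 14.3-fold at the 4-cell stage and 7.39-fold at the 8-cell stage. The edited mean was 5.03% of the control mean at the 4-cell stage and 3.91% at the 8-cell stage. The log2 differences were -3.97 (SE 0.476, 95% interval -4.98 to -2.96, limma adjusted p = 1.02e-05) and -3.53 (SE 0.476, 95% interval -4.54 to -2.52, limma adjusted p = 7.39e-05). Without the lower 8-cell control the 8-cell difference was -4.32, and without the higher one it was -2.74, and both passed the test.

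STAR, the steroidogenic acute regulatory protein, moves cholesterol to the inner mitochondrial membrane and is regarded as the acute control point of steroid synthesis. Its level was 159 and 193 CPM in the 4-cell controls, 127 and 126 CPM in the 4-cell edited libraries, 154 and 143 CPM in the 8-cell controls and 174 and 213 CPM in the 8-cell edited libraries. The groups did not overlap at either stage: edited libraries were below the controls at the 4-cell stage and above them at the 8-cell stage. Neither difference passed the test, at -0.46 on the log2 scale for 4-cell embryos (95% interval -0.93 to -0.00, limma adjusted p = 0.0952) and 0.38 for 8-cell embryos (95% interval -0.08 to 0.84, limma adjusted p = 0.290). The change of the editing difference from the 4-cell to the 8-cell stage was 0.84 (SE 0.308) and did not pass either (limma adjusted p = 0.118). STAR thus kept between 126 and 213 CPM in all libraries, including those in which SCARB1 was below 5 CPM.

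CYP11A1 encodes the cholesterol side-chain cleavage enzyme, which makes pregnenolone. It measured 227 and 201 CPM in the 4-cell controls, 3.33 and 14.5 CPM in the 4-cell edited libraries, 29.1 and 133 CPM in the 8-cell controls, and 12.7 and 4.97 CPM in the 8-cell edited libraries. The edited and control libraries were far apart at the 4-cell stage, with the lowest control 13.9-fold above the highest edited library, and closer at the 8-cell stage, with a factor of 2.29. Edited embryos held 4.17% of the control mean at the 4-cell stage and 10.9% at the 8-cell stage. The log2 difference was -4.71 at the 4-cell stage (SE 0.605, 95% interval -5.99 to -3.43, limma adjusted p = 1.91e-05) and -2.81 at the 8-cell stage (SE 0.605, 95% interval -4.09 to -1.53, limma adjusted p = 0.00361). The 8-cell call rested on replicate 2 of the controls: without it the difference was -1.73 (limma adjusted p = 0.0684), and without replicate 1 it was -3.89 (limma adjusted p = 6.37e-05).

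FDX1, ferredoxin, passes electrons from ferredoxin reductase to CYP11A1 and to other mitochondrial cytochromes P450. It measured 232 and 134 CPM in the 4-cell controls, 192 and 131 CPM in the 4-cell edited libraries, 133 and 134 CPM in the 8-cell controls and 163 and 171 CPM in the 8-cell edited libraries. The 4-cell groups overlapped, and the 8-cell edited libraries lay above the 8-cell controls, the lowest edited value over the highest control being 1.215. The differences were -0.15 (95% interval -0.72 to 0.41, limma adjusted p = 0.678) and 0.32 (95% interval -0.25 to 0.88, limma adjusted p = 0.486). FDXR, the reductase that feeds electrons to FDX1, behaved unlike FDX1. It measured 44.7 and 38.1 CPM in the 4-cell controls, 4.25 and 1.84 CPM in the 4-cell edited libraries, 9.93 and 23.9 CPM in the 8-cell controls and 3.38 and 3.24 CPM in the 8-cell edited libraries. FDXR was lower in edited embryos at both stages, by 3.45 (limma adjusted p = 1.21e-05) and by 1.94 (limma adjusted p = 0.00394). Without replicate 2 of the 8-cell controls its 8-cell call was lost (-1.34, limma adjusted p = 0.0952).

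HSD3B1 encodes the 3-beta-hydroxysteroid dehydrogenase that turns pregnenolone into progesterone. Its level was 283 and 283 CPM in the 4-cell controls, 5.87 and 17.8 CPM in the 4-cell edited libraries, 40.7 and 176 CPM in the 8-cell controls and 8.31 and 3.09 CPM in the 8-cell edited libraries. All edited libraries lay below all controls, the lowest control being 15.9-fold above the highest edited library at the 4-cell stage and 4.90-fold above it at the 8-cell stage. The edited mean was 4.19% and 5.26% of the control mean. The log2 differences were -4.64 (SE 0.557, 95% interval -5.82 to -3.46, limma adjusted p = 1.03e-05) and -3.80 (SE 0.557, 95% interval -4.98 to -2.62, limma adjusted p = 0.000147). The 8-cell call held without either control library, at -4.84 without replicate 1 and -2.76 without replicate 2. Reads of HSD3B1 may be shared with a closely similar gene of the family, since the counting of multiply mapped reads is not given in the sources used here.

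CYP19A1, aromatase, makes oestrogens from androgens. Its level was low throughout, with 0.898 and 1.82 CPM in the 4-cell controls, 1.65 and 2.25 CPM in the 4-cell edited libraries, 1.97 and 1.83 CPM in the 8-cell controls and 2.15 and 1.92 CPM in the 8-cell edited libraries. These values rest on 31 to 77 reads each, and the groups overlapped at both stages. The differences were 0.34 (95% interval -0.48 to 1.16, limma adjusted p = 0.497) and 0.06 (95% interval -0.76 to 0.88, limma adjusted p = 0.938).

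FSHR, the receptor for follicle stimulating hormone, measured 3.45 and 9.68 CPM in the 4-cell controls, 0.694 and 1.70 CPM in the 4-cell edited libraries, 1.52 and 2.28 CPM in the 8-cell controls and 3.50 and 0.270 CPM in the 8-cell edited libraries. The 4-cell groups were separate, while the 8-cell edited libraries held both the highest and the lowest value of that stage. The 4-cell difference was -1.69 (SE 0.555, limma adjusted p = 0.0210) and the 8-cell difference -0.27 (95% interval -1.44 to 0.91, limma adjusted p = 0.803). The 4-cell call was lost without replicate 2 of the 4-cell controls (-1.06, limma adjusted p = 0.206) or without replicate 1 of the 4-cell edited libraries (-1.35, limma adjusted p = 0.173).

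INHBA encodes the beta A subunit shared by activin A and inhibin A. It measured 4.72 and 3.02 CPM in the 4-cell controls, 1.91 and 0.702 CPM in the 4-cell edited libraries, 2.06 and 2.90 CPM in the 8-cell controls and 0.448 and 0.659 CPM in the 8-cell edited libraries. Edited libraries lay below controls at both stages, by the wider margin at the 8-cell stage, where the lowest control was 3.13-fold above the highest edited library. The test passed at the 4-cell stage (-1.11, SE 0.409, limma adjusted p = 0.0370) and not at the 8-cell stage (-1.16, 95% interval -2.02 to -0.29, limma adjusted p = 0.0707), although the sizes were alike. The 4-cell call was lost without replicate 1 of the 4-cell controls (-0.85, limma adjusted p = 0.243) or without replicate 2 of the 4-cell edited libraries (-0.72, limma adjusted p = 0.234).

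The transcription factors NR5A1 and FOXL2 were barely detected. NR5A1, steroidogenic factor 1, which activates most of the genes above in gonads and adrenals, had 12 and 10 reads in the 4-cell controls, 15 and 4 in the 4-cell edited libraries, 5 and 13 in the 8-cell controls and 10 and 14 in the 8-cell edited libraries. That is 0.117 to 0.434 CPM, with overlapping groups at both stages. FOXL2, which maintains granulosa cell identity, had 16 and 0 reads in the 4-cell controls, 8 and 0 in the 4-cell edited libraries, and 0 to 2 in each 8-cell library. A library with 0 reads allows a level of up to 3 reads, which was 0.0858 to 0.0899 CPM here and covers counting error only. Differences between groups were not detectable at this depth for FOXL2.

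**Figure D2:**
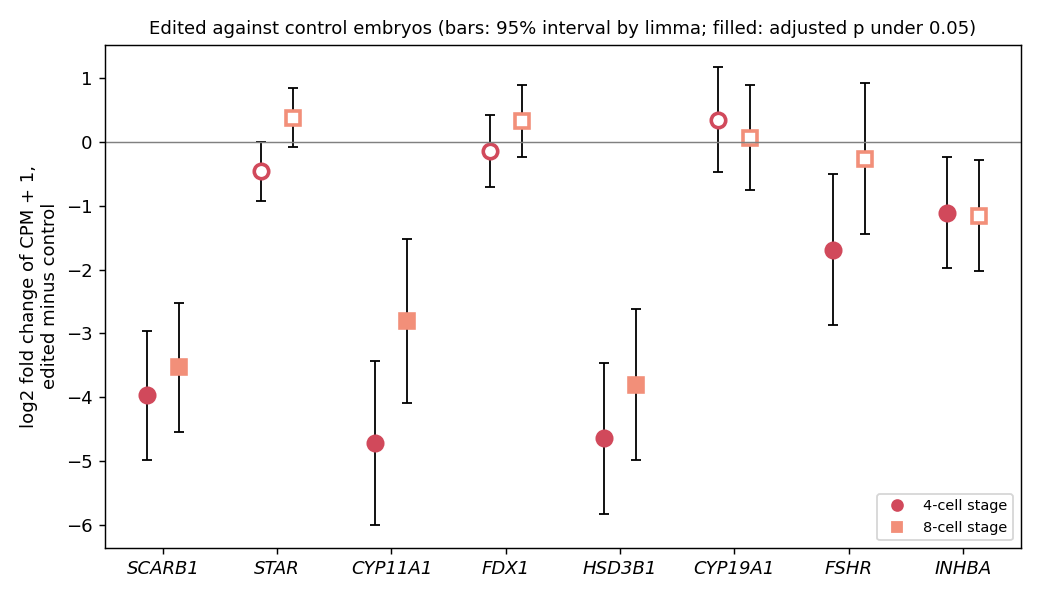
Log2 fold change of CPM + 1, edited minus control (y axis), for the 8 tested genes (x axis), with circles for the 4-cell stage, squares for the 8-cell stage, bars for the 95% interval by limma and filled symbols for an adjusted p under 0.05. SCARB1, CYP11A1 and HSD3B1 lie between -4.71 and -2.81 at both stages, and STAR, FDX1 and CYP19A1 between -0.46 and 0.38. The 4-cell interval of STAR runs from -0.93 to -0.003, and its adjusted p did not pass.

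Without either 8-cell control library the 8-cell differences of STAR (0.43 without replicate 1 and 0.33 without replicate 2), FDX1 (0.31 and 0.32), CYP19A1 (0.10 and 0.03), FSHR (-0.46 and -0.07) and INHBA (-1.33 and -0.98) kept their direction, and again none passed.

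Read as a group, 6 of the 8 tested genes had both edited libraries below both controls at the 4-cell stage (SCARB1, STAR, CYP11A1, HSD3B1, FSHR and INHBA), and 37.5% of all genes tested did so. At the 8-cell stage it was 4 of 8 (SCARB1, CYP11A1, HSD3B1 and INHBA), and 32.7% of all genes did so. INHBA passed the filter through the controls, so its part in both counts is not independent of the filter. The 8 genes had a median log2 difference of -1.40 in 4-cell embryos and -0.71 in 8-cell embryos, beside -0.02 and 0.00 over all genes tested. SCARB1, CYP11A1 and HSD3B1 had the 3 lowest values at each stage, from -4.71 to -3.97 at the 4-cell stage and from -3.80 to -2.81 at the 8-cell stage.

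The stages were then compared within each group. From the 4-cell to the 8-cell controls SCARB1 was lower by 1.65 (SE 0.476, limma adjusted p = 0.0433), the 1 gene of 8 that passed, where 9.02% of all genes tested passed in either direction. CYP11A1 and HSD3B1 did not pass, with differences of -1.76 (limma adjusted p = 0.0727) and -1.72 (limma adjusted p = 0.0598). These 3 values moved with the uneven 8-cell controls. Without the higher of them all 3 genes passed (CYP11A1 -2.84, HSD3B1 -2.77 and SCARB1 -2.43), and without the lower one none did (-0.68, -0.68 and -0.86). The SCARB1 call was also lost without replicate 1 of the 4-cell controls (-1.50, limma adjusted p = 0.265), without replicate 2 of the 4-cell controls (-1.79, limma adjusted p = 0.0505) and without either 4-cell edited library, which shares in the estimate of spread (limma adjusted p = 0.0687 and 0.0669). Without replicate 2 of the 4-cell controls FDX1 passed instead, at -0.79 (limma adjusted p = 0.0442).

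Between the 4-cell and the 8-cell edited embryos 0 of the 8 genes passed, where 5.18% of all genes did. An unadjusted p under 0.05 by limma was reached by 2604 of all 12129 genes tested and by 2 of the 8. The 2 were STAR, higher by 0.60 at the 8-cell stage (limma adjusted p = 0.120), and SCARB1, with a difference of -1.21 (limma adjusted p = 0.154). The editing difference itself was compared between the stages, and again 0 of the 8 genes passed, where 3.96% of all genes did. By limma, 2 of the 8 had an unadjusted p under 0.05, as did 2800 of all 12129 genes tested. edgeR and DESeq2 on recovered reads also called 0 in both comparisons. The editing difference of CYP11A1 was smaller at the 8-cell stage by 1.90 (SE 0.855, limma adjusted p = 0.196). Without replicate 2 of the 8-cell controls that value was 2.98 and passed (limma adjusted p = 0.0297). These comparisons share libraries with those above and are not independent of them.

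The 2 8-cell control libraries differed in only some of these genes. Replicate 2 exceeded replicate 1 by 4.56-fold in CYP11A1, 4.32-fold in HSD3B1 and 3.15-fold in SCARB1, whereas STAR differed by 1.07-fold and FDX1 by 1.01-fold. On the log2 scale the differences of replicate 1 minus replicate 2 were -2.15, -2.09 and -1.57 for CYP11A1, HSD3B1 and SCARB1. Over all genes tested the same difference had a median of -0.10 with quartiles of -0.46 and 0.18. The 4-cell controls were close, with differences of 0.18, -0.00 and 0.29 for the same 3 genes. Edited libraries also differed: CYP11A1 and HSD3B1 were lower in replicate 1 at the 4-cell stage (-1.84 and -1.45) and higher in replicate 1 at the 8-cell stage (1.20 and 1.19).

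**Figure D3:**
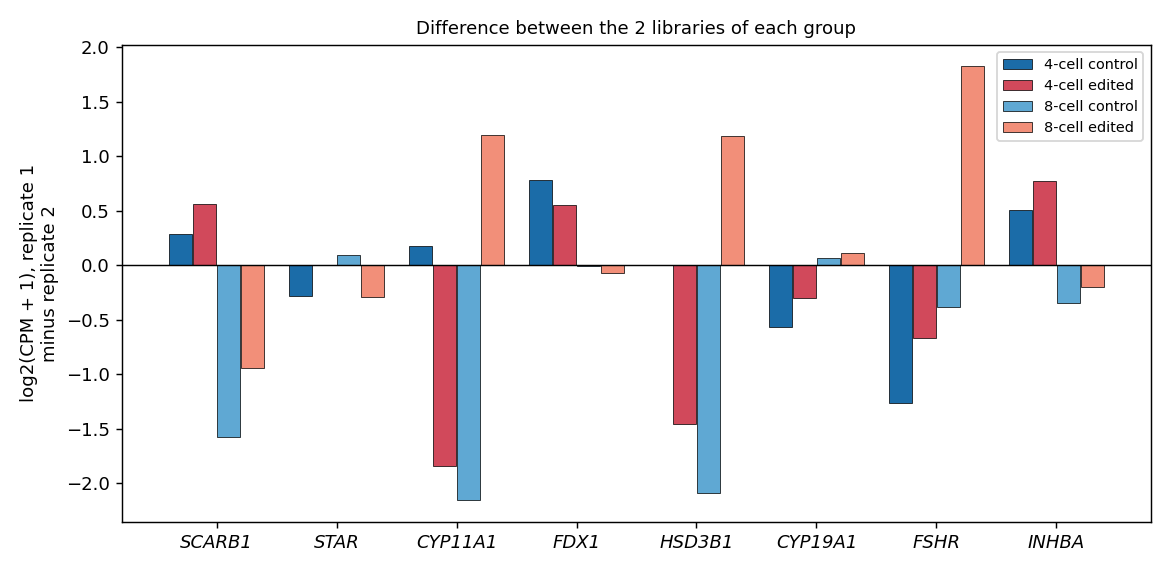
Difference of log2(CPM + 1) between replicate 1 and replicate 2 of each group (y axis) for the 8 tested genes (x axis), 1 bar per group. In the 8-cell controls CYP11A1, HSD3B1 and SCARB1 reach -2.15, -2.09 and -1.57, and STAR and FDX1 lie at 0.10 and -0.01.

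Across the 8 libraries CYP11A1 and HSD3B1 had a Pearson correlation of 0.984 on the log2 scale, HSD3B1 and SCARB1 of 0.942, and SCARB1 and INHBA of 0.956. STAR had correlations of 0.121, -0.007 and 0.002 with CYP11A1, HSD3B1 and SCARB1. CYP19A1 had correlations of -0.491, -0.503 and -0.642 with the same 3 genes, so the average profile used below mixes unlike profiles. These values are descriptions over 8 libraries that fall into 4 groups, so that any gene that differs between the groups in the same way gives a high value. By the same measure, among 7431 other genes averaging 10 CPM or more, the genes near to the average profile of the 8 tested genes included MYLK (0.991), GAPDH (0.988), CNPY2 (0.988), SARS1 (0.987), BSG (0.987), CASQ1 (0.986), EIF3F (0.986), COMMD5 (0.986) and CMTM6 (0.986). GAPDH, a glycolytic enzyme often used as a reference gene, measured 4058 and 4177 CPM in the 4-cell controls, 399 and 527 CPM in the 4-cell edited libraries, 1091 and 2505 CPM in the 8-cell controls and 727 and 505 CPM in the 8-cell edited libraries. The nearest genes to CYP11A1 were LRRC2 (0.993), YIPF1 (0.990) and SULT1A1 (0.988), those to HSD3B1 were LIX1L (0.996), RBM3 (0.994) and TXN2 (0.992), and ZFAND2B (0.994) and IL10RB (0.993) were among the 3 nearest to SCARB1. STAR was nearest to RHBDD1 (0.947), CHMP3 (0.934) and THOC3 (0.930), and FDX1 to C14H8orf89 (0.927), DDA1 (0.913) and PIGY (0.902).

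The other genes of the pathway were read from 4 lists. Their counts stand beside shares over all genes tested of 25.8% lower and 18.9% higher at the 4-cell stage, and 14.5% and 1.08% at the 8-cell stage. Some listed genes, such as HSD3B7 and EMX2, averaged below 1 CPM in both edited groups and passed the filter through the controls. Of 25 further steroid-converting enzymes and their partners, 20 were in the table and 14 were tested, of which 6 were lower and 1 higher in edited 4-cell embryos and 3 were lower and 0 higher in edited 8-cell embryos. Their median difference was -0.88 and -0.60. Besides FDXR, the named genes were HSD11B1, GSTA1 and CYB5A. HSD11B1, which interconverts cortisone and cortisol, measured 44.5 and 58.0 CPM in the 4-cell controls against 8.76 and 10.5 CPM in the edited libraries (-2.29, limma adjusted p = 0.00105), and 20.1 and 44.9 CPM in the 8-cell controls against 4.03 and 0.599 CPM (-3.46, limma adjusted p = 8.28e-05). CYB5A, cytochrome b5, was the gene that rose, from 126 and 117 CPM to 244 and 260 CPM at the 4-cell stage (1.05, limma adjusted p = 0.000683).

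GSTA1, a glutathione transferase whose family takes part in steroid isomerisation and whose close relatives may share its reads, varied most between replicates. It measured 232 and 259 CPM in the 4-cell controls, 0.723 and 3.63 CPM in the 4-cell edited libraries, 19.4 and 657 CPM in the 8-cell controls and 54.0 and 0.0300 CPM in the 8-cell edited libraries. The 4-cell groups were separate (-6.44, limma adjusted p = 0.00152), and the 8-cell groups overlapped (-3.94, limma adjusted p = 0.0714). CYP17A1, which makes androgens in theca cells, had 0.0598 CPM or less in every library. LHCGR, the receptor for luteinising hormone, had 0.0579 CPM or less in every library, below the level of 3 reads.

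All 30 genes of cholesterol supply and synthesis were tested, and 19 were lower and 1 higher in edited 4-cell embryos, with a median of -1.20. At the 8-cell stage 9 were lower and 0 higher, with a median of -0.51. TSPO, a protein of the outer mitochondrial membrane, fell from 719 and 439 CPM to 30.7 and 38.6 CPM at the 4-cell stage (-3.99, limma adjusted p = 3.95e-06) and from 111 and 350 CPM to 31.9 and 15.1 CPM at the 8-cell stage (-3.11, limma adjusted p = 8.6e-05). FDFT1, squalene synthase, fell from 373 and 387 CPM to 39.1 and 54.1 CPM at the 4-cell stage (-3.02, limma adjusted p = 1.16e-06) and from 115 and 175 CPM to 56.5 and 39.6 CPM at the 8-cell stage (-1.57, limma adjusted p = 0.000525). In each case both edited libraries were below both controls.

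NSDHL, a sterol dehydrogenase late in cholesterol synthesis, fell at the 4-cell stage from 148 and 155 CPM to 38.3 and 46.1 CPM (-1.82, limma adjusted p = 2.57e-05). HMGCS1, an early enzyme of the mevalonate pathway, was the gene that rose, from 136 and 225 CPM to 272 and 310 CPM at the 4-cell stage (0.73, limma adjusted p = 0.0290).

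Of 27 genes of gonadotropin, inhibin and steroid receptor signalling 21 were tested, and 8 were lower and 3 higher in edited 4-cell embryos, with a median of -0.17. At the 8-cell stage 4 were lower and 0 higher, with a median of -0.18. Among all genes tested, 25.8% were lower and 18.9% higher at the 4-cell stage, and 14.5% were lower at the 8-cell stage. FST, follistatin, which binds activin, fell from 177 and 101 CPM to 5.26 and 2.87 CPM at the 4-cell stage (-4.78, limma adjusted p = 2.62e-05) and from 7.75 and 66.3 CPM to 2.09 and 1.62 CPM at the 8-cell stage (-3.09, limma adjusted p = 0.00252). FSTL3, a related activin binder, fell from 189 and 127 CPM to 16.6 and 22.2 CPM (-2.95, limma adjusted p = 3.29e-05) and from 33.9 and 92.9 CPM to 10.0 and 5.51 CPM (-2.76, limma adjusted p = 0.000141). In both genes the edited libraries lay below the controls at each stage, and replicate 2 was the higher 8-cell control.

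PRKAR2B, a regulatory subunit of protein kinase A, fell by 2.16 at the 4-cell stage (limma adjusted p = 0.00120) and by 2.10 at the 8-cell stage (limma adjusted p = 0.00371). The 3 genes that rose at the 4-cell stage were receptors of the TGF-beta family. BMPR2 went from 16.5 and 31.0 CPM to 82.6 and 94.6 CPM (1.91, limma adjusted p = 7.56e-05), and the differences were 0.95 for TGFBR3 (limma adjusted p = 0.0225) and 0.61 for BMPR1B (limma adjusted p = 0.0457). BMPR2, TGFBR3 and BMPR1B had 8-cell differences of 0.46, 0.18 and 0.13, none of which passed.

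Among 19 ovarian somatic transcription factors 16 were tested, of which 7 were lower and 0 higher at the 4-cell stage (median -0.71) and 6 were lower and 0 higher at the 8-cell stage (median -1.16). None of them reached a mean of 10 CPM, so the following were named after their values were seen. GATA4, a regulator of granulosa genes, measured 12.8 and 5.89 CPM in the 4-cell controls against 1.16 and 0.760 CPM (-2.33, limma adjusted p = 0.000689), and 2.66 and 5.41 CPM in the 8-cell controls against 0.239 and 1.11 CPM (-1.58, limma adjusted p = 0.0242). NR5A2, the relative of NR5A1 that acts in granulosa cells, measured 13.2 and 14.1 CPM in the 4-cell controls against 2.43 and 8.01 CPM (-1.40, limma adjusted p = 0.0141), and 10.5 and 13.2 CPM in the 8-cell controls against 2.81 and 2.31 CPM (-1.85, limma adjusted p = 0.00595). WT1 and NR0B1, which act in the gonad as well, had 4-cell differences of 0.22 and 0.24 that did not pass.

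**Figure D4:**
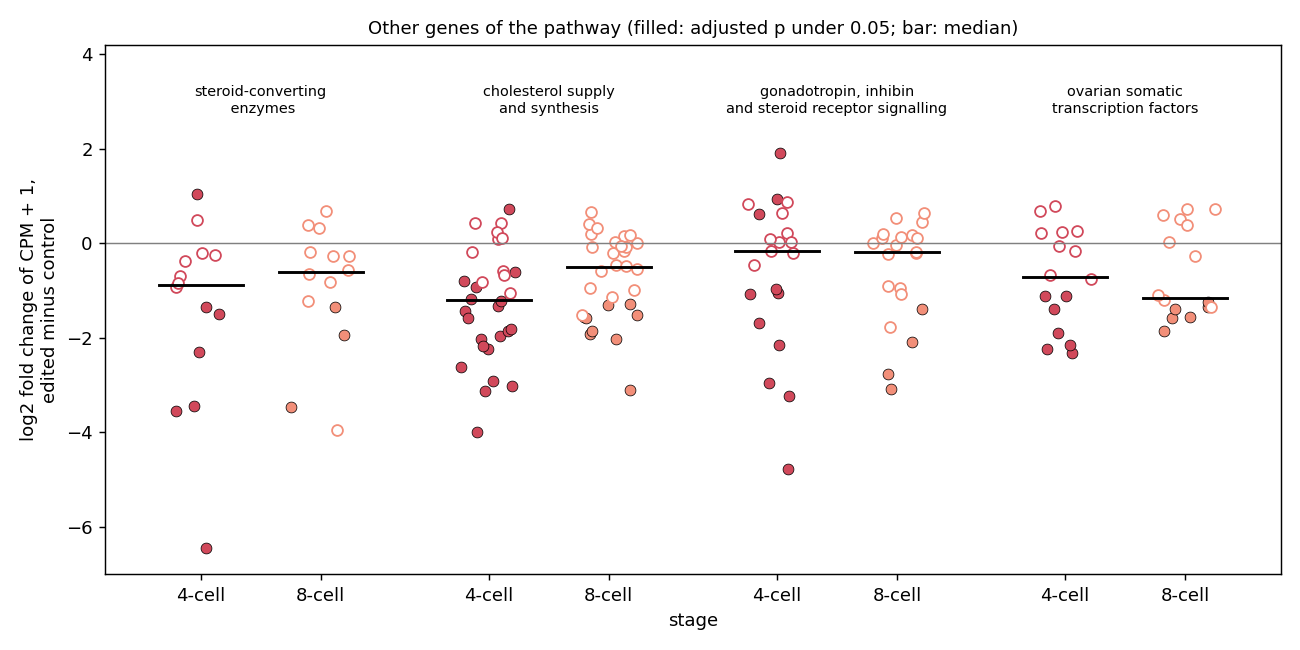
Log2 fold change of CPM + 1, edited minus control (y axis), for each tested gene of the 4 lists at the 4-cell and the 8-cell stage (x axis), with filled points for an adjusted p under 0.05 by limma and bars for the list median. The medians at the 4-cell stage run from -1.20 for cholesterol supply and synthesis to -0.17 for gonadotropin, inhibin and steroid receptor signalling.

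The 8-cell counts of these lists depended on which control library was kept. Without replicate 2 of the 8-cell controls the number called lower was 1 of 14 steroid-converting enzymes, 4 of 30 cholesterol genes, 2 of 21 signalling genes and 0 of 16 transcription factors. Without replicate 1 it was 4, 11, 5 and 8. Over all genes tested the share called lower moved as well, from 14.5% to 7.91% without replicate 2 and to 13.8% without replicate 1. Among the named genes, TSPO, FDFT1, FST, FSTL3 and HSD11B1 stayed called lower without either library. Without replicate 2 the 8-cell calls of PRKAR2B (-1.57, limma adjusted p = 0.0708), GATA4 (-1.18, limma adjusted p = 0.225) and NR5A2 (-1.70, limma adjusted p = 0.0551) were lost, besides that of FDXR, and the difference of FST was -1.62 in place of -3.09. Without replicate 1 GSTA1 passed (-6.45, limma adjusted p = 0.000888). Between these 2 control libraries, replicate 1 was the lower one in 11 of 14, 26 of 30, 20 of 21 and 11 of 16 genes of the lists, in 6 of the 8 genes of the main group, and in 59.4% of all genes tested.

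The tested granulosa and stromal markers were lower in edited embryos as well, whereas cumulus markers were mixed. The marker counts too stand beside 25.8% lower and 18.9% higher among all genes at the 4-cell stage, and 14.5% and 1.08% at the 8-cell stage. Other granulosa markers than the 10 genes (AMH, AMHR2, INHA, FST, GATA4, NR5A2, HSD17B1, SERPINA5 and TNFRSF19, all 9 in the table) summed to 231 and 142 CPM in the 4-cell controls, 10.4 and 14.3 CPM in the 4-cell edited libraries, 23.7 and 101 CPM in the 8-cell controls and 6.37 and 6.05 CPM in the 8-cell edited libraries. Of the 6 tested, 6 were lower in edited 4-cell embryos and 3 in edited 8-cell embryos, or 1 without replicate 2 of the 8-cell controls. AMHR2, HSD17B1 and TNFRSF19 were not tested, with at most 0.616, 1.59 and 0.120 CPM in any library. AMH, GATA4 and SERPINA5 averaged below 1 CPM in both edited groups and passed the filter through the controls. INHA, averaging 1.04 CPM in the 4-cell edited and 0.508 CPM in the 8-cell edited libraries, also passed it through the controls. The part of these genes in the counts is therefore not independent of the filter. The same held for TNFAIP6 among the cumulus markers below, and for COL1A1 and COL3A1 among the stromal ones. The sum of the tested granulosa markers differed 4.28-fold between the 8-cell controls, in the same order as CYP11A1 and HSD3B1, with 6 of 6 genes lower in replicate 1. FST made up most of the sum in the controls other than the lower 8-cell one, and without FST the 8-cell controls held 16.0 and 35.2 CPM. 7 of the 9 (all but SERPINA5 and TNFRSF19) also stand in the pathway lists above, so those counts are not separate evidence.

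Cumulus markers (HAS2, PTX3, TNFAIP6, PTGS2, VCAN, CD44, GREM1, SERPINE2 and HAPLN1 in the table, of 10 listed) summed to 923 and 600 CPM in the 4-cell controls, 315 and 338 CPM in the 4-cell edited libraries, 390 and 380 CPM in the 8-cell controls and 286 and 236 CPM in the 8-cell edited libraries. Of 8 tested, 4 were lower and 2 higher at the 4-cell stage, and 1 was lower at the 8-cell stage. Their sum differed 1.03-fold between the 8-cell controls, unlike the sum of the granulosa markers. SERPINE2, at 171 and 176 CPM there, was its largest part. Single genes differed in both directions, with 5 of 8 lower and 3 higher in replicate 1, such as TNFAIP6 (0.687 and 4.94 CPM) and CD44 (61.1 and 24.2 CPM).

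All 6 stromal markers were tested and 5 were lower in edited embryos at each stage, and their sum, most of it LUM, was 3097 and 6439 CPM in the 4-cell controls, 1337 and 1968 CPM in the 4-cell edited libraries, 3184 and 2621 CPM in the 8-cell controls and 132 and 790 CPM in the 8-cell edited libraries. INSL3, the only theca marker of 3 with an appreciable level, ranged from 17.5 to 63.7 CPM in the 4-cell controls and from 0.983 to 6.35 CPM in the 4-cell edited libraries. Of 12 oocyte markers 6 were called higher and 0 lower in edited 4-cell embryos, with 4 below 0, and 3 higher and 0 lower in edited 8-cell embryos. Their sum, in which BTG4 was the most abundant gene, was 19130 and 25510 CPM in the 4-cell controls, 48760 and 57550 CPM in the 4-cell edited libraries, 49480 and 36770 CPM in the 8-cell controls and 51960 and 54900 CPM in the 8-cell edited libraries. Without BTG4 the sums ran from 7115 to 10580 CPM in the 4-cell controls, 19920 to 19990 CPM in the 4-cell edited libraries, 13290 to 16290 CPM in the 8-cell controls and 21370 to 22900 CPM in the 8-cell edited libraries. Leukocyte markers summed to 12.6 to 24.0 CPM, endothelial markers to 52.9 to 161 CPM and erythroid markers to at most 0.659 CPM in any library. The erythroid sum may count the same reads 2 times, since HBA and HBA1 had identical values, at most 0.330 CPM each. The part of these markers in the results was not tested, and in bulk libraries fewer cells of a type and less RNA per cell cannot be told apart.

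**Figure D5:**
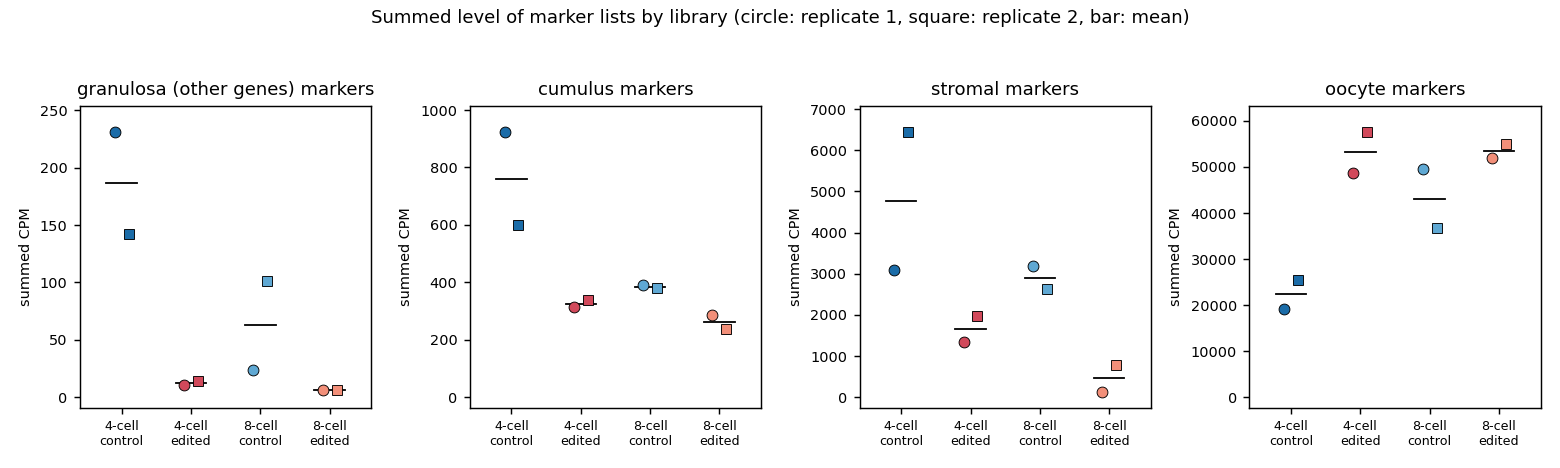
Summed level in CPM (y axis, linear) of 4 marker lists in the 8 libraries, by group on the x axis, with circles for replicate 1, squares for replicate 2 and bars for the mean. The granulosa sum is 231 and 142 CPM in the 4-cell controls and at most 14.3 CPM in the edited libraries, and the 8-cell controls lie at 23.7 and 101 CPM.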

How the data were processed

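Values were taken from 1 deposited table in counts per 1000000 reads (CPM). Per the submitters' processing notes, reads were handled with Trim Galore 0.6.7, HISAT2 2.2.1 and featureCounts 2.0.1. The genome build, annotation, strand setting, treatment of multiply mapped reads and the step to CPM are not given in the sources used here. Per the labels, RNA was amplified with a Smart-seq2 kit and libraries were made with Nextera XT. The columns summed to 992528 to 1007024 CPM, and in every library 100.0% of values were whole multiples (within 0.05) of the value of 1 read, which gave the 33527531 to 35122409 reads per library. 4 of the 12 columns belong to no sample used here. Genes were matched by symbol (10 of 10, and 16571 of all 16606, in a RefSeq table). 227 tested genes have values identical to another gene's, none of them among the 10.

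The test was limma 3.58.1 in R 4.3.3 on log2(CPM + 1), with its prior spread following the mean level, over the 12129 genes averaging 1 CPM or more and all 8 libraries, with 1 mean per group and Benjamini-Hochberg adjustment over all genes tested. A gene was called at an adjusted p under 0.05. Alternatives were other pseudocounts (0.5 and 5 CPM) and filters, TMM and median-ratio scaling, edgeR 4.0.16 and DESeq2 1.42.0 on recovered reads, only the compared libraries, a replicate block, and leaving out each library in turn. edgeR called 5172 genes between edited and control 4-cell embryos and 1695 at the 8-cell stage, where limma called 5419 and 1895. The method was also run on simulated data with far fewer changed genes than were called here, all at 10 CPM or more. That run does not test the method under the conditions of these data.

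The 10 genes and all lists were chosen with earlier results of these data known. Pathway genes were named by rule: up to 3 called genes per direction, list and stage with the smallest p and a mean of at least 10 CPM, any other being marked as such. The nearest profiles were named by the highest Pearson correlation. 3 genes that these rules name are not reported here. Levels were not compared between genes, since CPM is not corrected for length. A planned search for promoter motifs was not run, as promoter sequences were not used here. Sperm markers had no match in the table.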

Additional observations from a re-analysis of the deposited data

Results flagged for a closer look

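In 3 genes of the pathway lists the difference between edited and control embryos itself differed between the stages, by limma's test of that difference over all genes. For HSD3B7, a bile acid synthesis relative of HSD3B1 with a mean below the naming rule's 10 CPM, the 8-cell difference minus the 4-cell difference was 2.21 on the log2 scale (SE 0.564, limma adjusted p = 0.0412). Its level was 17.4 and 11.4 CPM in the 4-cell controls, 0.0868 and 0.527 CPM in the 4-cell edited libraries, 2.63 and 2.54 CPM in the 8-cell controls and 0.658 and 0.210 CPM in the 8-cell edited libraries. For FDFT1 the value was 1.45 (SE 0.377, limma adjusted p = 0.0431), and for NSDHL it was 1.29 (SE 0.342, limma adjusted p = 0.0465). All 3 genes were lower in edited embryos by more at the 4-cell stage. HSD3B7 averaged 0.307 CPM in the 4-cell edited and 0.434 CPM in the 8-cell edited libraries, on 3 to 22 reads each. It passed the filter through the controls. Its value therefore mostly restates the lower level of the 8-cell controls, at 2.59 CPM on average beside 14.35 CPM in the 4-cell controls. Without replicate 1 of the 8-cell controls none of the 3 passed, at 2.22, 1.16 and 1.12 for HSD3B7, FDFT1 and NSDHL (limma adjusted p = 0.138, 0.203 and 0.210). Without replicate 2, FDFT1 (1.75) and NSDHL (1.46) passed and HSD3B7 (2.19, limma adjusted p = 0.0544) did not. Of the 18 other settings run, HSD3B7 kept the call in 6, FDFT1 in 7 and NSDHL in 6, with the same sign in all 18 and adjusted p-values up to 0.166, 0.203 and 0.210. No gene of the table was called for this difference by limma without either 4-cell edited library or with no filter on low values, where 2748, 2376 and 2993 genes had an unadjusted p under 0.05.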

How the results depend on the processing

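Of 364 recomputed values for single genes (19 results over 20 settings), 326 kept direction and side of the threshold, 23 lost the call, 9 gained one and 6 changed sign. The cause was not tested for any of them. SCARB1 and HSD3B1 were called lower at both stages, and CYP11A1 at the 4-cell stage, under every setting run. The 4-cell count of 5 genes was 3 with edgeR, with or without its filter, where FSHR and INHBA lost the call, 4 with no filter, 4 with DESeq2, and 4 to 5 when 1 library was left out. The 8-cell count of 3 was 2 to 3 when 1 library was left out, 2 with no filter, where CYP11A1 missed (limma adjusted p = 0.0550), and 4 with DESeq2, which added INHBA (-2.10). Between the control stages the count of 1 was 0 with a pseudocount of 0.5, no filter, edgeR with or without its filter, DESeq2, or only the compared libraries, 3 with a pseudocount of 5, and 0 to 3 when 1 library was left out. The count for the difference between stages was 0 to 1 when 1 library was left out.

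FSHR at the 8-cell stage turned to 0.02 with edgeR (0.0190 with its filter, 0.0183 without) and 0.0078 with DESeq2, and ranged from -1.18 to 0.65 when 1 library was left out, the last without replicate 2 of the 8-cell edited libraries. FDX1 at the 4-cell stage ranged from -0.54 to 0.24, at 0.24 without replicate 1 of the 4-cell controls and 0.12 without replicate 2 of the 4-cell edited libraries. Same-numbered libraries did not deviate together from their group means (correlations of -0.30 to 0.11), so the replicate numbers were not taken as pairs. A replicate block gave 5, 3, 3, 0 and 0 called genes for the 5 comparisons, and crossing the numbers of the 8-cell controls gave 1 between the control stages. Depth limits NR5A1 and FOXL2 most, with at most 16 reads in any library.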

Other observations

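The cumulus genes did not move as 1 group at the 4-cell stage. HAS2, the hyaluronan synthase of cumulus expansion, measured 24.3 and 55.4 CPM in the 4-cell controls and 132 and 124 CPM in the 4-cell edited libraries (1.77, limma adjusted p = 0.000260), and GREM1, a BMP antagonist, 3.39 and 3.34 CPM against 8.42 and 7.93 CPM (1.07, limma adjusted p = 0.0213). SERPINE2, a protease inhibitor, measured 691 and 347 CPM in the 4-cell controls and 118 and 115 CPM in the edited libraries (-2.07, limma adjusted p = 2.28e-05), and CD44, the hyaluronan receptor, 98.5 and 62.8 CPM against 13.5 and 24.8 CPM (-2.04, limma adjusted p = 0.00185). VCAN, versican, fell by 1.43 (limma adjusted p = 0.000370). At the 8-cell stage SERPINE2 was the 1 gene of 8 that passed, from 171 and 176 CPM to 58.2 and 56.3 CPM (-1.58, limma adjusted p = 0.000544). It passed without either 8-cell control library as well (-1.60 and -1.56). These genes were named after their values were seen.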
